A study of Rattus norvegicus with 6 samples.

Results

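The genes of motile cilia and of their axoneme were examined in RNA-seq data from rat spinal cord. They were chosen by gene symbol: the Dnah, Dnai, Cfap, Rsph, Tekt, Drc and Spag families, Ccdc39, Ccdc40 and Foxj1, with a summed count of at least 60 over the 6 libraries. Of 22050 genes in the deposited table, 69 carried such a symbol and 58 reached the summed count. The rule read neither the groups nor any difference between them, but it was set with earlier results of these data known. It names Ccdc40, which the study had picked on these same samples. The lowest sums inside the rule were 66 for Cfap221 and 71 for Cfap74. The highest sums outside it were 58 for a second row named Spag5 and 52 for Tekt5. The other 9 genes left out were Cfap58, Spag4, Rsph6a, Spag6, Cfap58l1, Spag16, Cfap97d1, Spag11a and Spag11bl, the last 3 of which had no count in any library. Foxj1, the forkhead factor that switches on the motile cilia programme, was not analysed here. All 58 genes passed the filter on low counts, as did 14426 genes in all.

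The libraries came from the spinal cord of sham rats (Sham, 3 libraries) and of rats with neuropathic pain after spared nerve injury (SNI-NP, 3 libraries). Spared nerve injury is a ligation and cut of branches of the sciatic nerve that leaves the sural branch intact, and the sham rats had surgery without it. According to the methods of the study, the animals were young adult male Sprague-Dawley rats. The spinal segment, the side and the day of collection of these libraries are not given in the sources used here. The labels do not say that each library is a separate animal, so the p-values measure the spread between these libraries.

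A motile cilium is built on the axoneme, a ring of doublet microtubules around a central pair. Outer and inner dynein arms slide the doublets, radial spokes and the central apparatus time the sliding, the nexin-dynein regulatory complex links neighbouring doublets, and a ruler made of Ccdc39 and Ccdc40 sets the spacing of these parts. Tektins and many Cfap proteins line the inside of the doublet wall. In the spinal cord, motile cilia are carried by the ependymal cells that line the central canal and move the cerebrospinal fluid. Other cells of the cord carry a primary cilium, which has no dynein arms and does not beat.

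Between 16670760 and 18151156 estimated counts per library were available, so a gene without a count could lie at up to 0.167 to 0.18 CPM (counts scaled to the library size), for counting error alone. The label spinal cord was checked against marker lists. Markers of oligodendrocytes, astrocytes and spinal neurons were present. So were markers of Schwann cells, the myelinating glia of peripheral nerve: Prx, which encodes periaxin of peripheral myelin, averaged 4390 ± 318 CPM (SD, n = 3) in Sham and 5629 ± 887 CPM in SNI-NP. Markers of dorsal root ganglion neurons were also present, and the SNI-NP 1 library stood apart with a summed level of 213 CPM, against 625 to 1697 CPM in the other 5. The members were therefore also compared without each library.

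The 58 genes were low in this tissue. Their median level was 5.41 CPM, against 19.2 CPM over all genes tested, and 50 of them lay under 15 CPM. Scaled for length, the median was 1.78 FPKM, against 7.98 FPKM over all genes tested. The symbols were checked against the GO terms of the deposited table: 42 of the 58 (72.4%) carried a term with the letters cili, axonem, flagell or dynein, against 4.05% of all genes tested. The letters cili also occur in words such as facilitated, so both shares can include terms of no cilium. Of the 58, 52 were assigned a place in the axoneme, the motile cilium or its assembly. The other 6, Spag5, Spag7, Spag9, Cfap36, Cfap97 and Cfap410, share the naming without a settled place in the motile axoneme and are described separately. Of these, Cfap36 and Cfap410 carried such a GO term.

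More of these genes were higher than lower in the SNI-NP rats. At an unadjusted p under 0.05 in edgeR's quasi-likelihood test, 13 of 58 (22.4%) were higher, while 4.91% of all genes tested were. Ccdc40, which the study had picked on these samples, was among the 13. The lower genes were 3 (5.17%), against 5.94% of all genes tested. Of the 52 with an assigned ciliary place, 12 were higher and 1, Ccdc39, was lower. This split was made after the values were seen, and it set apart 1 higher gene and 2 of the 3 lower genes. No gene passed after Benjamini-Hochberg adjustment over the 14426 genes (0% of genes called), and the smallest adjusted p in edgeR's test was 0.335, for Cfap45. With DESeq2, 15 of the 58 passed at the unadjusted p and 0 after adjustment, the smallest adjusted p being 0.0569.

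The direction was shared more widely than the calls. The fitted log2 fold change was above 0 for 45 of the 58 genes, beside 50.9% of all genes tested. Its median was 0.28, which is a difference of SNI-NP from Sham on the log2 scale, against 0.0057 over all genes tested. All 3 SNI-NP libraries lay above all 3 sham libraries for 18 genes (31.0%), beside 10.4% of all genes, and below them for 2 genes, Cfap36 and Cfap97 (3.45%), beside 8.15%. The median depended on the third sham library: without Sham 3 it was 0.14, and without each of the other 5 it lay between 0.21 and 0.32. The number of higher genes was 7 without Sham 1, 7 without SNI-NP 3 and 8 without Sham 3, while 2.11%, 2.10% and 2.57% of all genes tested were then higher, and it was 10 to 12 without each of the others.

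**Figure D1:**
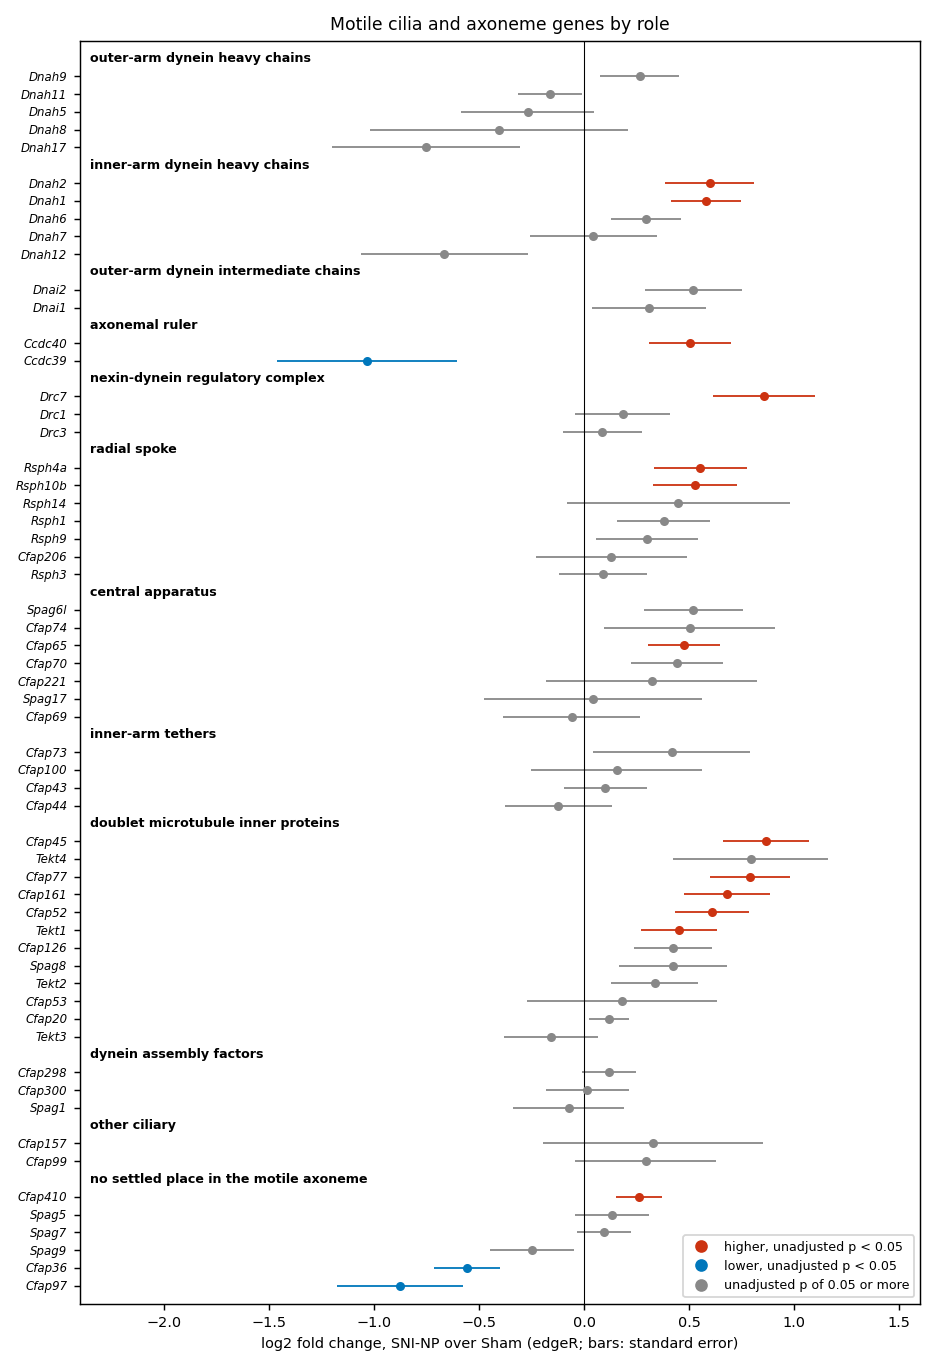
Fitted log2 fold change (SNI-NP over Sham, edgeR) of each of the 58 genes, grouped by place in the cilium; points are estimates, bars are 1 standard error, red and blue mark genes past an unadjusted p of 0.05. Most points of the doublet inner proteins, radial spoke and central apparatus lie right of 0, 4 of 5 outer-arm heavy chains lie left of it, and Ccdc39 is the lowest at −1.03. Of all genes tested (not drawn), 50.9% had a fold change above 0.

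The proteins inside the doublet microtubules held the most higher genes, but they were also the largest group by place. Of 12 such genes, 5 were higher (Cfap45, Cfap77, Cfap161, Cfap52 and Tekt1), 0 were lower and 11 had a fold change above 0. Of all genes tested, 4.91% were higher and 50.9% had a fold change above 0. Among the heavy chains of the inner dynein arms, 2 of 5 were higher. Places were assigned after the values were seen and were not tested against each other. Cfap45 and Cfap52 are partners that line the doublet wall. Cfap45 was at 4.62, 4.96 and 3.55 CPM in the sham libraries 1 to 3 and 8.74, 7.94 and 7.25 CPM in the SNI-NP libraries 1 to 3. Every SNI-NP library thus exceeded every sham library, and the fitted difference was 0.86 ± 0.20 (SE) on the log2 scale (unadjusted p = 0.00338 in edgeR's test). Cfap52 was at 7.98, 9.97 and 8.56 CPM in the sham rats and 11.9, 15.8 and 12.8 CPM in the SNI-NP rats, a log2 difference of 0.61 ± 0.18 (SE) (unadjusted p = 0.00969 in edgeR's test).

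Cfap77 and Cfap161 sit in the same wall. For Cfap77 the sham libraries gave 4.98, 4.84 and 4.02 CPM and the SNI-NP libraries 7.02, 8.11 and 8.81 CPM, a log2 difference of 0.79 ± 0.19 (SE) (unadjusted p = 0.00396 in edgeR's test). For Cfap161 the values were 2.94, 2.87 and 3.43 CPM in Sham and 5.35, 4.72 and 4.75 CPM in SNI-NP, a log2 difference of 0.68 ± 0.20 (SE) (unadjusted p = 0.0120 in edgeR's test). Neither gene showed any overlap between the groups. Together with Drc7, the 4 genes Cfap45, Cfap52, Cfap77 and Cfap161 were the members that stayed higher at an unadjusted p under 0.05 in all 6 fits without 1 library.

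Tektins are filament proteins bundled in the same wall. Tekt1 was at 5.52, 4.90 and 4.54 CPM in the sham rats and 7.36, 6.66 and 6.43 CPM in the SNI-NP rats, a log2 difference of 0.45 ± 0.18 (SE) (unadjusted p = 0.0403 in edgeR's test). The groups did not overlap, but this call was past the threshold in 0 of the 6 fits without 1 library and was not made by DESeq2 (unadjusted p = 0.0620). Tekt2 had 5.40, 4.68 and 4.07 CPM in the sham rats and 5.46, 5.55 and 6.84 CPM in the SNI-NP rats (log2 difference 0.34 ± 0.21 (SE), unadjusted p = 0.148 in edgeR's test). Cfap20, the most abundant gene of the wall at 44.6 FPKM, also serves basal bodies and other cilia. Its levels of 50.1, 51.4 and 49.8 CPM in the sham and 57.2, 50.9 and 56.3 CPM in the SNI-NP rats overlapped, with a log2 difference of 0.12 ± 0.09 (SE). The groups of Tekt4, Cfap126, Spag8, Cfap53 and Tekt3 differed by −0.16 to 0.79 without passing the test.

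**Figure D2:**
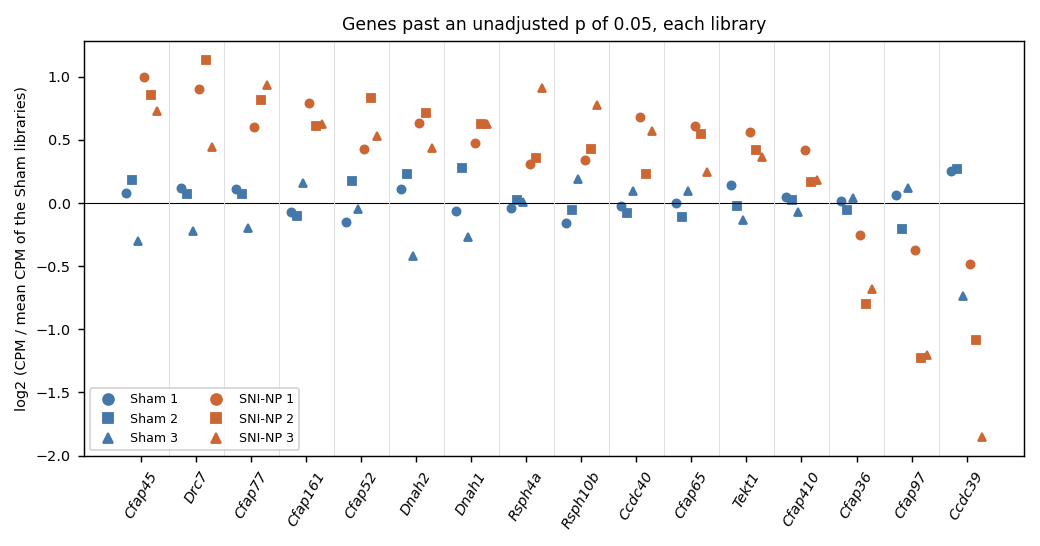
Level of the 16 genes past an unadjusted p of 0.05 in each library, as log2 of CPM over the mean CPM of the 3 sham libraries; blue are sham and orange SNI-NP libraries, with a marker shape for each replicate number. The SNI-NP points lie above all sham points for the 13 higher genes and below them for Cfap36 and Cfap97, while those of Ccdc39 overlap the sham range.

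All 7 radial spoke genes had a fold change above 0, and 2 of them, Rsph4a and Rsph10b, passed the unadjusted threshold. Of all genes tested, 50.9% had a fold change above 0 and 4.91% were higher. Rsph4a and Rsph9 belong to the spoke head that touches the central apparatus. Rsph4a was at 4.74, 4.96 and 4.89 CPM in the sham rats, a narrow range, and at 6.04, 6.22 and 9.16 CPM in the SNI-NP rats, with the third library far above the others. Its log2 difference was 0.55 ± 0.22 (SE) (unadjusted p = 0.0396 in edgeR's test). Rsph10b was at 5.28, 5.69 and 6.75 CPM in Sham and 7.48, 7.94 and 10.1 CPM in SNI-NP, a log2 difference of 0.53 ± 0.20 (SE) (unadjusted p = 0.0323 in edgeR's test). The groups of both genes were separate. Rsph1 and Rsph9, the most abundant spoke genes per length, gave log2 differences of 0.38 ± 0.22 (SE) and 0.30 ± 0.24 (SE) and did not pass (unadjusted p = 0.127 and 0.256 in edgeR's test). Rsph9 was at 6.12, 5.35 and 3.73 CPM in the sham and 5.69, 7.28 and 5.74 CPM in the SNI-NP rats, and Rsph1 at 4.62, 4.56 and 3.55 CPM in Sham and 4.66, 6.33 and 5.56 CPM in SNI-NP.

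In the central apparatus, 6 of 7 genes had a fold change above 0 and 1 was higher, beside 50.9% and 4.91% of all genes tested. The higher gene was Cfap65, at 7.80, 7.21 and 8.32 CPM in the sham rats and 11.8, 11.4 and 9.22 CPM in the SNI-NP rats, without overlap (log2 difference 0.48 ± 0.17 (SE), unadjusted p = 0.0253 in edgeR's test). Spag6l, a subunit of the central pair, was at 3.54, 4.73 and 3.61 CPM in Sham and 5.69, 6.78 and 4.58 CPM in SNI-NP, with a slight overlap, and did not pass (unadjusted p = 0.0629 in edgeR's test). The 2 genes with the lowest counts of all 58 belong here. Cfap74 was at 0.600, 0.676 and 0.407 CPM in Sham and 0.920, 0.722 and 0.754 CPM in SNI-NP, and Cfap221 at 0.720, 0.563 and 0.407 CPM in Sham and 0.518, 0.4998 and 1.10 CPM in SNI-NP. Neither gene passed at these levels (log2 difference 0.50 ± 0.41 (SE) and 0.32 ± 0.50 (SE)), and that of Cfap221 turned to −0.18 without SNI-NP 3.

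Among the motors, the inner and the outer arms were counted apart. Of 5 inner-arm heavy chains, Dnah1 and Dnah2 were higher and 4 had a fold change above 0. Of 5 outer-arm heavy chains, 0 passed and only Dnah9 had a fold change above 0. Over all genes tested, 4.91% were higher, 5.94% were lower and 50.9% had a fold change above 0. In a group of 5 genes, 0 calls are close to these shares. The difference between the arms was not tested. Dnah1 was at 12.9, 16.4 and 11.2 CPM in the sham rats and 18.8, 20.9 and 20.9 CPM in the SNI-NP rats (log2 difference 0.58 ± 0.17 (SE), unadjusted p = 0.00974 in edgeR's test). Dnah2 was at 8.34, 9.07 and 5.76 CPM in Sham and 11.96, 12.7 and 10.4 CPM in SNI-NP (log2 difference 0.60 ± 0.21 (SE), unadjusted p = 0.0236 in edgeR's test). Both genes were lowest in Sham 3 and showed no overlap between the groups. Both calls were kept in 4 of the 6 fits without 1 library.

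The outer arms hold a beta and a gamma heavy chain, which differ between tissues. Dnah5 and Dnah9 are the chains known from airway and ependymal cilia, and Dnah8 and Dnah17 those known from sperm. Dnah9 was at 9.07, 9.52 and 6.64 CPM in the sham and 10.2, 10.6 and 9.51 CPM in the SNI-NP rats, and Dnah5 at 6.42, 5.35 and 3.90 CPM in Sham and 6.04, 3.89 and 3.07 CPM in SNI-NP. Neither gene passed the test (log2 difference 0.26 ± 0.19 (SE) and −0.27 ± 0.32 (SE)). Dnah11 was the most abundant axonemal heavy chain per length (1.71 FPKM), at 22.2, 28.1 and 22.4 CPM in the sham and 24.6, 21.3 and 19.2 CPM in the SNI-NP rats. Its log2 difference of −0.16 ± 0.15 (SE) moved to 0.01 with offsets for a trend on length, fitted in each library over all genes. Scaled for its own length, Dnah11 was at 1.65, 2.17 and 1.67 FPKM in Sham and 1.75, 1.59 and 1.41 FPKM in SNI-NP. The part of length in this difference was not tested. In RefSeq, the span of Cdca7l overlaps that of Dnah11. Reads in bases shared by exons of both could not be told apart if strand was not used. Whether their exons share bases was not examined. The intermediate chains Dnai1 and Dnai2, which anchor the outer arm, did not pass (unadjusted p = 0.293 and 0.0575 in edgeR's test). Dnai2 was at 2.70, 2.70 and 2.91 CPM in the sham and 3.74, 3.44 and 4.75 CPM in the SNI-NP rats, without overlap, and Dnai1 at 4.62, 3.89 and 6.17 CPM in Sham and 4.72, 7.77 and 5.68 CPM in SNI-NP, with overlap.

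The 2 genes of the axonemal ruler were called in opposite directions. Ccdc40 was at 5.04, 4.84 and 5.47 CPM in the sham rats and 8.22, 5.998 and 7.59 CPM in the SNI-NP rats, and every SNI-NP library exceeded every sham library. The log2 difference was 0.51 ± 0.20 (SE) (unadjusted p = 0.0344 in edgeR's test). Ccdc40 had been chosen by the study on these same samples, so its direction here is no independent evidence. The study also reports qPCR of Ccdc40 in SNI-NP spinal cord, with a change that matched its sequencing. Ccdc39, whose protein pairs with that of Ccdc40, was at 4.503, 4.56 and 2.27 CPM in the sham rats and 2.70, 1.78 and 1.04 CPM in the SNI-NP rats. It gave the lowest fold change of all 58 genes, −1.03 ± 0.43 (SE) on the log2 scale (unadjusted p = 0.0450 in edgeR's test), but Sham 3 lay below SNI-NP 1, so the groups overlapped. The calls were kept in 1 of 6 fits without 1 library for Ccdc40 and in 2 of 6 for Ccdc39.

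The ratio of Ccdc40 to Ccdc39 counts was 1.12, 1.06 and 2.41 in the sham libraries and 3.04, 3.38 and 7.28 in the SNI-NP libraries. All SNI-NP ratios exceeded all sham ratios, which restates the opposite calls and is given as a description with no test. In RefSeq, Ccdc39 overlaps Ttc14, whose counts were 86, 128 and 85 in the sham and 123, 22 and 42 in the SNI-NP libraries (log2 difference −0.69 ± 0.57 (SE), unadjusted p = 0.264 in edgeR's test). The part of shared reads in the Ccdc39 values was not tested. A ratio within a library cannot show which of the pair differed.

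**Figure D3:**
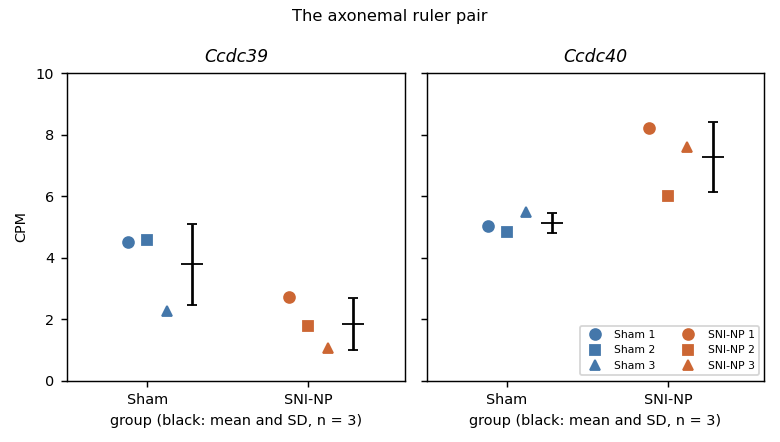
CPM of Ccdc39 (left) and Ccdc40 (right) in each library, on a linear axis from 0; points are libraries, black lines the mean and SD of the 3 libraries of a group. Ccdc40 was 4.84 to 5.47 CPM in sham and 5.998 to 8.22 CPM in SNI-NP rats, while the ranges of Ccdc39, 2.27 to 4.56 CPM and 1.04 to 2.70 CPM, overlap.

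The nexin-dynein regulatory complex had 1 of 3 members higher and 0 lower, beside 4.91% and 5.94% of all genes tested. Drc7, a linker subunit, was at 3.90, 3.77 and 3.08 CPM in the sham rats and 6.73, 7.89 and 4.87 CPM in the SNI-NP rats, a log2 difference of 0.86 ± 0.24 (SE) (unadjusted p = 0.00921 in edgeR's test). All SNI-NP libraries lay above the sham libraries. Drc1 and Drc3, the 2 most abundant subunits per length, did not pass. Drc1 was at 5.40, 4.23 and 3.90 CPM in the sham and 4.95, 5.94 and 4.46 CPM in the SNI-NP rats, and Drc3 at 6.96, 9.63 and 7.63 CPM in Sham and 7.76, 9.27 and 8.69 CPM in SNI-NP. Their log2 differences were 0.18 ± 0.23 (SE) and 0.09 ± 0.19 (SE), with overlapping groups. The 4 genes that tether inner arms to the doublet (Cfap43, Cfap44, Cfap73 and Cfap100) and the 3 factors that assemble dynein in the cytoplasm (Spag1, Cfap298 and Cfap300) included 0 higher and 0 lower genes, with log2 differences of −0.12 to 0.42 and −0.07 to 0.12.

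The 6 genes without a settled place in the motile axoneme held 1 higher and 2 lower genes, beside 4.91% and 5.94% of all genes tested. The 2 highest of all 58 by CPM, Spag9 and Cfap410, were among these 6. Cfap410 is known from ciliogenesis and the DNA damage response. It was at 224, 221 and 207 CPM in the sham and 292, 244 and 247 CPM in the SNI-NP rats, a small log2 difference of 0.26 ± 0.11 (SE) (unadjusted p = 0.0454 in edgeR's test), which was past the threshold in 1 of 6 fits without 1 library. Cfap36, which binds the small GTPase Arl3 of the primary cilium, was lower. It was at 38.6, 36.6 and 39.2 CPM in the sham rats and 32.04, 21.9 and 23.8 CPM in the SNI-NP rats, without overlap (log2 difference −0.56 ± 0.16 (SE), unadjusted p = 0.00890 in edgeR's test). The call for Cfap36 was made in all 6 fits without 1 library, and without SNI-NP 1 its adjusted p in edgeR's test with Benjamini-Hochberg adjustment was 0.0444, the only adjusted call of a member in those fits. Over all fits run its adjusted p lay between 0.0444 and 0.777. Its lowest values were those of SNI-NP 2 and SNI-NP 3.

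Cfap97 was also lowest in SNI-NP 2 and SNI-NP 3. It was at 4.74, 3.94 and 4.95 CPM in the sham and 3.51, 1.94 and 1.97 CPM in the SNI-NP rats (log2 difference −0.88 ± 0.30 (SE), unadjusted p = 0.0213 in edgeR's test), kept in 3 of 6 fits without 1 library. RefSeq places Snx25 over Cfap97, and Snx25 differed by −0.23 ± 0.14 (SE) (unadjusted p = 0.148 in edgeR's test). Spag9, a scaffold of JNK kinase signalling and the member with the highest CPM, was at 321, 333 and 277 CPM in the sham and 314, 184 and 287 CPM in the SNI-NP rats, with overlap (log2 difference −0.25 ± 0.20 (SE)). Spag7 differed by 0.09 ± 0.13 (SE), at 23.2, 24.4 and 27.47 CPM in Sham and 24.3, 29.49 and 26.2 CPM in SNI-NP. In all, RefSeq places a protein-coding gene over 14 of the 58 genes, and the use of strand in counting is not given in the sources used here.

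Promoter windows were examined because genes of motile cilia are known targets of RFX and Foxj1 factors. Windows of 300 bases, from 250 before to 50 after each annotated start, were taken from RefSeq (rat assembly GRCr8) and were found for 50 of the 58 genes. The letters GTTGCC, an RFX core (GGCAAC on the other strand), occurred in the windows of 17 of the 50 (34.0%), against 13.1% of 27457 genes with a window. They occurred in 3 of 10 higher genes with a window, in 1 of 3 lower genes and in 13 of 37 genes past neither threshold (35.1%). The letters TGTTTA, a forkhead core (TAAACA on the other strand), occurred in 11 of the 50 (22.0%), against 14.8% of all genes, in 1 of the 10 higher and 0 of the 3 lower genes. No match of one motif overlapped one of the other. The members had 76 windows for 50 genes and all genes 33469 for 27457, so members had more starts per gene. A match is a run of letters, not a shown binding site. The windows of 2 higher genes with an RFX core, Cfap161 and Tekt1, are printed first, with the cores in capitals, followed by those of the ruler pair, which were called in opposite directions and hold no match. All are read 5′ to 3′ on the strand of the gene.
Cfap161, minus strand, chr1:147177772-147178071: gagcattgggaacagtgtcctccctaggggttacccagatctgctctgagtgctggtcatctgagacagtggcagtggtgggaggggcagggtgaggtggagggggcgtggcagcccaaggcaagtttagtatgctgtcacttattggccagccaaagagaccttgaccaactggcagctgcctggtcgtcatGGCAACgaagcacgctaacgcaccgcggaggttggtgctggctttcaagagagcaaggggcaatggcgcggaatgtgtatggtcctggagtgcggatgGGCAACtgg
Tekt1, minus strand, chr10:57479072-57479371: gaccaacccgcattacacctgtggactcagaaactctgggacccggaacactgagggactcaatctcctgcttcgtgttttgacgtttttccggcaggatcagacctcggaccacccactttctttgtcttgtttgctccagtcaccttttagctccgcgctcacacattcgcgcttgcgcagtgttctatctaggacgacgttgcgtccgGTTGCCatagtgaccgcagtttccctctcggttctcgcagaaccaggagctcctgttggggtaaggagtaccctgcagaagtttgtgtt
Ccdc40, plus strand, chr10:104985033-104985332: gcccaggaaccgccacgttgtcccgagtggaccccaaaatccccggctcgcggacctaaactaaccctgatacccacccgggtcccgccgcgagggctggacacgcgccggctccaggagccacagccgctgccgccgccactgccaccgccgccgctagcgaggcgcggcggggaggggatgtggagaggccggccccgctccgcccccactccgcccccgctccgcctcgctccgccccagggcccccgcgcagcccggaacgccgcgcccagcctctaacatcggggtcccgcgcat
Ccdc39, minus strand, chr2:118631535-118631834: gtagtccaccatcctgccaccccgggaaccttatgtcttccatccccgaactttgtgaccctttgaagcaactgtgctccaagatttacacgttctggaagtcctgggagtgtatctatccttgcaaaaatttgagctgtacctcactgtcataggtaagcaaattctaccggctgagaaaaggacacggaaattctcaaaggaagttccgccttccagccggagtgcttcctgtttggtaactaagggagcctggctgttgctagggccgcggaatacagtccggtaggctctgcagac

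In the Tekt1 window the core began at −39, with the start counted as 0. In the Cfap161 window it began at −57, with a second one at 41. Among genes that did not pass, matches lay as close to the start in Dnai2 (−55), Drc1 (−19) and Tekt2 (−29 and 10).

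Ciliary genes that the symbol rule does not reach were counted for comparison. Of 84 listed genes of motile cilia, 58 could be tested, and 13 of them (22.4%) were higher and 1 (1.72%) was lower, beside 4.91% and 5.94% of all genes tested. Their median log2 difference was 0.30. The higher genes were Ak7, Wdr66, Dnaaf1, Zmynd10, Dnali1, Pifo, Hydin, Ttc25, Ropn1l, Ttc29, Armc3, Spata18 and Dnaaf5, among them inner-arm (Dnali1), central apparatus (Hydin), docking (Ttc25) and assembly (Dnaaf1, Zmynd10, Dnaaf5) proteins. Ak7, a ciliary adenylate kinase, was at 7.44, 6.37 and 5.88 CPM in the sham and 11.7, 11.2 and 9.97 CPM in the SNI-NP rats (log2 difference 0.74 ± 0.17 (SE), unadjusted p = 0.00307 in edgeR's test). Wdr66, a spoke protein, was at 4.32, 5.01 and 3.38 CPM in Sham and 8.05, 7.11 and 7.25 CPM in SNI-NP (log2 difference 0.82 ± 0.21 (SE), unadjusted p = 0.00541 in edgeR's test). Neither gene showed overlap between the groups. The lower gene was Spata17, with 1.14, 1.24 and 0.757 CPM in Sham and 0.633, 0.389 and 0.406 CPM in SNI-NP. None of them passed after Benjamini-Hochberg adjustment in edgeR's test. The number of higher genes was 4 without Sham 3 and 6 without SNI-NP 3, while 2.57% and 2.10% of all genes tested were then higher.

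Of 22 listed regulators of multiciliated cells, 13 were tested, 0 were higher and 0 lower, with a median log2 difference of 0.14. In a list of 13 genes this is close to the share of all genes called (4.91% higher and 5.94% lower). E2f4, a factor that drives centriole amplification with Mcidas, was at 17.6, 19.8 and 25.2 CPM in the sham and 28.99, 24.05 and 26.03 CPM in the SNI-NP rats (log2 difference 0.33 ± 0.16 (SE), unadjusted p = 0.0762 in edgeR's test). Tp73, which acts upstream of Foxj1, differed by 0.48 ± 0.30 (SE) (unadjusted p = 0.144 in edgeR's test). Mcidas, Emx2 and Foxn4 had no count in any library.

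The transport machinery that motile and primary cilia share was counted next. Of 56 tested genes of intraflagellar transport, the BBSome and the transition zone, 0 were higher and 5 (8.93%) lower, beside 4.91% and 5.94% of all genes tested, and the median log2 difference was −0.02. Beside these shares, the counts are given as a description. Kif3a, the motor subunit that carries cargo to the ciliary tip, was at 69.8, 62.7 and 71.2 CPM in the sham and 46.1, 48.3 and 53.1 CPM in the SNI-NP rats, without overlap (log2 difference −0.47 ± 0.10 (SE), unadjusted p = 0.00252 in edgeR's test). Ift80, a subunit of the transport train, was at 27.2, 24.2 and 22.2 CPM in Sham and 21.3, 17.2 and 18.4 CPM in SNI-NP (log2 difference −0.37 ± 0.14 (SE), unadjusted p = 0.0304 in edgeR's test). The other lower genes were Rpgrip1l, Iqcb1 and Ofd1. The number of lower genes was 1 without SNI-NP 2, 2 without Sham 1 or Sham 2, and 3 without Sham 3 or SNI-NP 3, while 4.33%, 4.10%, 8.32%, 4.41% and 4.18% of all genes tested were then lower, in this order. The fit without SNI-NP 1 gave 6 lower genes, while 9.52% of all genes tested were then lower. Whether the lists differ from each other was not tested.

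**Figure D4:**
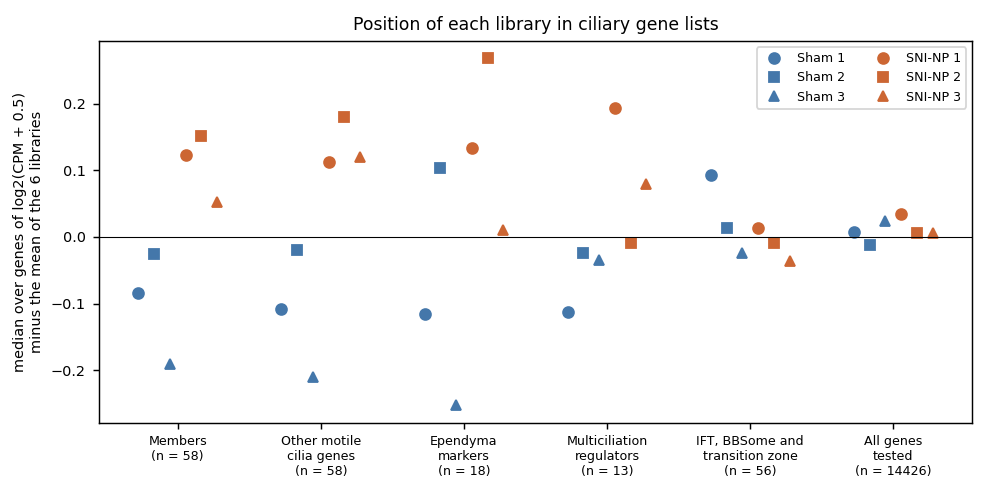
Position of each library in 5 gene lists and in all genes tested: the median over genes of log2(CPM + 0.5) minus the mean of the 6 libraries; blue are sham and orange SNI-NP libraries. For the 58 members the sham libraries lie at −0.19 to −0.03 and the SNI-NP libraries at 0.05 to 0.15, while all genes tested lie near 0 in every library.

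Each library's position was then read from the median of log2(CPM + 0.5) over the 58 members, relative to the mean of the 6 libraries. It was −0.08, −0.03 and −0.19 in the sham libraries and 0.12, 0.15 and 0.05 in the SNI-NP libraries. The groups did not overlap, and Sham 3 was the lowest. For the other motile cilia genes the positions were −0.11, −0.02 and −0.21 in the sham and 0.11, 0.18 and 0.12 in the SNI-NP rats, so the same library was lowest. The summed levels of these other genes, 605 to 722 CPM in the sham and 585 to 888 CPM in the SNI-NP rats, overlapped.

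Markers of other cells moved with the groups in part. Of 18 tested ependymal markers outside the members, 12 of which are also on the motile cilia list, 7 were higher (Ak7, Ccdc153, Pifo, Hydin, Tmem212, Ttc29 and Armc3) and 1 lower (Spata17), beside 4.91% and 5.94% of all genes tested. Their summed level was 105 to 132 CPM in the sham and 136 to 158 CPM in the SNI-NP rats. By the position of each library, the measure used for the members, the groups overlapped. It was −0.12, 0.10 and −0.25 in the sham and 0.13, 0.27 and 0.01 in the SNI-NP libraries. In whole tissue, more ependymal cells and more RNA per cell cannot be told apart. The number of higher markers was 1 without Sham 3, 3 without SNI-NP 2 and 4 without SNI-NP 3, while 2.57%, 5.17% and 2.10% of all genes tested were then higher. Rarres2, a secreted ependymal product with no part in the cilium, was at 29.7, 53.46 and 39.6 CPM in the sham and 56.8, 55.4 and 45.7 CPM in the SNI-NP rats and did not pass (unadjusted p = 0.129 in edgeR's test). Among markers of the choroid plexus, another ciliated tissue, Ttr, the defining one, was at 0 to 1.05 CPM in the sham and 0.116 to 1.21 CPM in the SNI-NP rats, and Otx2 had no count, while Kcnj13 was at 5.22, 9.97 and 3.26 CPM in Sham and 6.33, 6.72 and 3.48 CPM in SNI-NP. Of the 5 choroid plexus genes tested, 1 was higher, the folate receptor Folr1, at 2.28, 2.54 and 2.503 CPM in the sham and 3.57, 4.66 and 4.75 CPM in the SNI-NP rats.

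Of 8 astrocyte markers, 0 were higher and 1, Slc1a2, was lower, and their summed levels, 1355 to 3289 CPM in the sham and 1634 to 2075 CPM in the SNI-NP rats, overlapped. Of 7 neuron markers, 2 were lower (Slc17a6 and Snap25), with summed levels of 333 to 595 and 334 to 361 CPM. The Schwann cell markers Cldn19 and Prx were higher, Prx at 4639, 4498 and 4032 CPM in Sham and 6419, 4669 and 5799 CPM in SNI-NP. Blood and marrow markers were higher for 3 of 6 (Alas2, Mpo and Hbb), at 511 to 1236 and 1111 to 2584 CPM. Of 6 markers each, oligodendrocytes and microglia gave 0 calls, and meninges gave 1 higher gene (Col1a1). Beside these counts, 4.91% of all genes tested were higher and 5.94% lower. In lists this short, 0 or 1 call is close to these shares. By direction, all 8 astrocyte and all 7 neuron markers had a fold change below 0 (median log2 difference −0.47 and −0.42). So did 4 of 6 oligodendrocyte and 4 of 6 microglia markers (−0.31 and −0.07). All 5 Schwann cell, all 6 blood and marrow and 5 of 6 meninges markers lay above 0 (0.29, 0.96 and 0.37). Over all genes tested, 50.9% lay above 0. The part of these shifts in tissue makeup in the values of the ciliary genes was not tested. Without SNI-NP 1, the library with the lowest ganglion markers, 12 of the 58 members were higher and 4 lower, beside 3.56% and 9.52% of all genes tested, with a median log2 difference of 0.26.

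**Figure D5:**
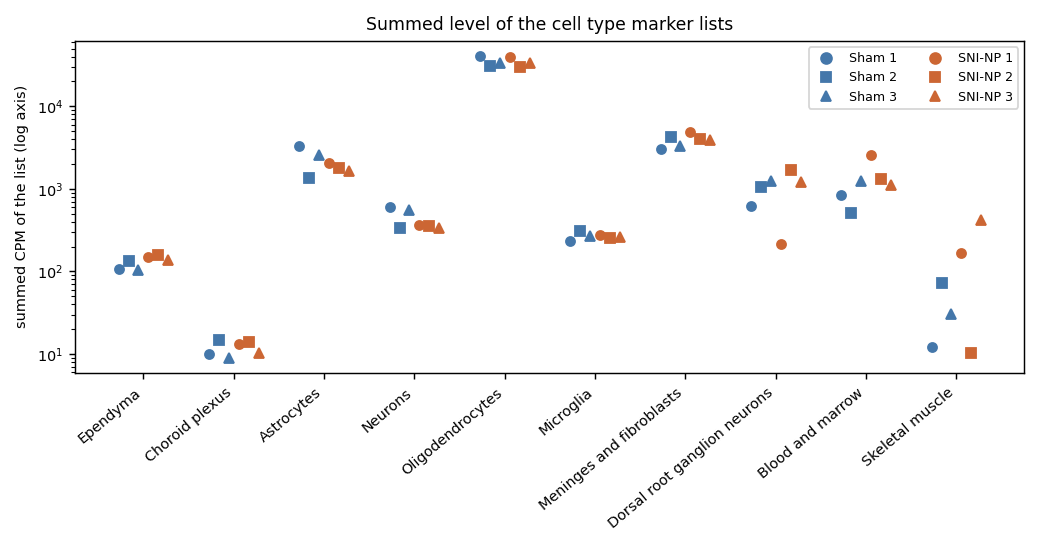
Summed CPM of 10 marker lists in each library, on a log axis; blue are sham and orange SNI-NP libraries. The ependymal sums are 105 to 132 CPM in sham and 136 to 158 CPM in SNI-NP rats, and the ganglion sum of SNI-NP 1 is the lowest of the 6.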

How the data were processed

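RNA of spinal cord from 3 sham and 3 SNI-NP libraries was analysed, grouped by the sample labels. The authors aligned reads to a rat genome release named Rat6 and kept unique sequences. The submitters' processing notes name FastQC, STAR and HTSeq, without a role or version. The values deposited are estimated counts per gene, not normalized and in part not whole, and FPKM values, in which the authors scaled counts by gene length and library total. Here counts were rounded to whole numbers. The test was edgeR's quasi-likelihood test (edgeR 4.0.16, R 4.3.3), with group as the only term, after filterByExpr and TMM. Benjamini-Hochberg adjustment covered all 14426 genes, and the common BCV was 0.223. A call needed an unadjusted p under 0.05. CPM uses TMM-scaled library sizes, the SE of a log2 fold change was taken from the F statistic, and gene lengths follow from count, total and FPKM.

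As alternatives, DESeq2 1.42.0, RLE and upper-quartile factors, no filter, at least 10 counts in every library, a block on the replicate number, loess offsets on length (span 0.5) with and without that block, FPKM ratios, and fits without each library were run. Some items are not reported here. DESeq2 and edgeR's test, the latter also with length offsets or with the replicate block, were tried on simulated counts. These counts used means and dispersions fitted to the real data. The other alternatives were not simulated. Promoters came from RefSeq (GRCr8). Named genes were Ccdc39, Ccdc40, every member past the threshold, the 8 with the smallest p, the 2 highest by FPKM of each family, the lowest-count members and, of each list, the 2 smallest p. Other genes were picked with their values in view. The members and lists were chosen with earlier results of these data known, and places in the axoneme were assigned after the values were seen.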

Additional observations from a re-analysis of the deposited data

How the results depend on the processing

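The 16 called genes kept their direction under every alternative run. All 16 calls held with RLE factors, upper-quartile factors, no filter and a minimum of 10 counts, 15 with DESeq2, 14 with length offsets, 11 with the block, 12 with the block and length offsets, and 8 to 12 without 1 library. Of the members, 8 were higher and 4 lower with the replicate number as a block, beside 3.11% and 6.04% of all genes tested, and the median log2 difference was then 0.27. Without 1 library, 7 to 12 members were higher, 2 to 4 lower and 0 to 1 past the adjusted threshold, with medians of 0.14 to 0.32. Without 1 library, the other motile cilia genes gave 4 to 11 higher, 0 to 2 lower, 0 adjusted calls and medians of 0.22 to 0.35; the transport genes 0 to 1 higher, 1 to 6 lower, 0 to 2 adjusted calls and medians of −0.089 to −0.021; and the ependymal markers 1 to 6 higher, 0 to 1 lower and medians of 0.17 to 0.40. DESeq2 gave 1 adjusted call in each of these 3 lists. The lower gene of the motile cilia and ependymal lists was lost (0 lower) under DESeq2, a minimum of 10 counts, the block, and the block with length offsets, and length offsets gave 1 higher transport gene. The log2 difference of Dnah11 turned to 0.015 with length offsets and to 0.022 with the block added; without 1 library, that of Cfap221 ranged from −0.18 (without SNI-NP 3) to 0.52 and that of Drc3 from −0.029 (without Sham 1) to 0.24. The cause of these changes was not tested.

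Whether the replicate numbers pair the samples was not settled. The correlations of same-numbered deviations were 0.214, −0.143 and 0.0538. Sham 1 correlated best with SNI-NP 1, while Sham 2 and Sham 3 correlated best with SNI-NP 3 and SNI-NP 2. These correlations are no test of pairing. With 50 of 58 genes under 15 CPM and 3 libraries per group, the precision of single genes was limited, and the size of difference that could be detected was not tested.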

Other observations

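Cells that touch the cerebrospinal fluid beside the ependyma were barely measured. Of 4 marker genes of the contacting neurons of the central canal, 2 could be tested. Pkd2l1, their defining channel, was at 0.720, 0.169 and 1.40 CPM in the sham and 1.09, 1.499 and 1.04 CPM in the SNI-NP rats, with overlapping groups (log2 difference 0.67 ± 0.64 (SE)). Pkd1l2 was at 1.74, 1.30 and 3.38 CPM in the sham and 4.77, 2.28 and 1.74 CPM in the SNI-NP rats, again with overlap.

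Of 8 markers of dorsal root ganglion neurons, 0 were higher and 1 was lower, beside 4.91% and 5.94% of all genes tested. The lower gene was the sodium channel gene Scn9a, at 31.2, 55.3 and 54.3 CPM in the sham and 9.20, 23.0 and 23.7 CPM in the SNI-NP rats. Of 5 skeletal muscle genes, 1 was higher, beside 4.91% of all genes tested. This was the myosin gene Myh4. It was at 2.70, 11.4 and 4.77 CPM in the sham and 42.7, 1.999 and 108 CPM in the SNI-NP rats, with SNI-NP 2 below every sham library.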
